A study of Mus musculus with 13 samples.

Results

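The chemokine genes Ccl3, Ccl4, Ccl5 and Xcl1, whose products T cells secrete, were followed across the 3 splenic CD4 T cell populations of the study. They were picked by gene symbol, which found 4 of the 18649 genes in the deposited table, and all 4 passed the filter on low values. The PD1hi population was CD4+ cells with high surface PD-1, an inhibitory receptor, and no GFP. Regulatory T cells (Treg) carried GFP, the reporter of the transcription factor Foxp3, and no surface PD-1, and conventional T cells (Tconv) had neither. All were sorted from mouse spleen, so the mice carried the reporter. The labels name no strain, age, treatment or number of animals. The 3 experiments that the titles name (3, 5 and 6) each held all 3 populations, in 3 PD1hi, 5 Treg and 5 Tconv libraries. Of these, 4 pairs share an experiment and a population. Whether both libraries of a pair come from separate animals or from 1 RNA is not labelled. Pairs were therefore averaged to 3 values per population, and p-values measure only the spread between these samples, which may be technical.

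Chemokines are small secreted proteins that draw leukocytes along a gradient by binding receptors coupled to G proteins. Ccl3, Ccl4 and Ccl5 are CC chemokines, of which Ccl3 and Ccl5 bind Ccr1, and activated T cells can recruit other T cells, monocytes and dendritic cells with them. Xcl1, also called lymphotactin, binds Xcr1, which in the spleen marks the dendritic cells that cross-present antigen. Activated T cells and natural killer (NK) cells are known sources of all of them, and Ccl5 is typical of cells that have already met antigen.

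The 13 libraries held 15971126 to 24216463 reads in genes. Values below are scaled counts, the reads of a gene divided by the library's size factor, and a difference between populations is a log2 difference with its standard error (SE) from limma, called at a Benjamini-Hochberg adjusted p under 0.05 over 14177 genes. The sorted genes followed the labels: Pdcd1, which encodes PD-1, averaged 37372 in PD1hi, 1955 in Treg and 1132 in Tconv, and Foxp3 averaged 106 in PD1hi, 15889 in Treg and 291.5 in Tconv. Cd4 was high in all 3 populations. The Treg pair of experiment 3 differed in reads by a chi-square of 73.5 per degree of freedom, where sampling noise alone gives about 1, against 7.77 to 9.05 for the other 3 pairs. Of the Treg pair of experiment 3, only the second library was left out on its own, and the first was not. Where a result changed without that second library, the value without it is given. Of the genes called between PD1hi and Tconv, 54.4% were higher in PD1hi, against 65.5% with libraries scaled to equal totals and 66.0% with voom on the recovered reads, which moved the median of all genes by 0.14 (log2). No log2 difference of the 4 chemokine genes changed sign under any scaling.

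Ccl3 and Ccl4 were both highest in PD1hi, above Tconv and above Treg. Ccl3 (ENSMUSG00000000982), an inflammatory chemokine that attracts monocytes and T cells, had scaled counts of 113, 235 and 232 in the PD1hi values of experiments 3, 5 and 6. In Tconv it had 41.6, 81.4 and 30.1, and in Treg 16.1, 7.52 and 12.1. None of the 3 populations overlapped another. The lowest Treg value rests on 8 reads, whose exact 95% interval is 3.45 to 15.8 reads, an interval that covers counting error only. The promoter of Ccl3, shown because only Ccl3 and Xcl1 were in the promoter table, covers the 250 bases before the start at chr11:83649379-83649628 on the minus strand of GRCm38.p6, from RefSeq. Capitals mark the short motifs searched.
Ccl3: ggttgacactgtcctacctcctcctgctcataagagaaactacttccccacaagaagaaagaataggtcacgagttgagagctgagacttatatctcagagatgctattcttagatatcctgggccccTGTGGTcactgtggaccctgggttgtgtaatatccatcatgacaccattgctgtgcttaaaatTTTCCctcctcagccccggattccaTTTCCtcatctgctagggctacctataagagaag
These motifs were AP-1 (TGANTCA), NFAT (GGAAA), RUNX (TGTGGT), T-box (TCACAC), an NF-kappaB motif, the TATA box (TATAAA) and CRE (TGACG), each on both strands. The Ccl3 window held NFAT in 2 places (59 to 55 and 34 to 30 bases before the start, written on the other strand as TTTCC) and RUNX in 1 place (122 to 117 bases before it), with no overlap. Of the 32851 promoters of the table in windows of this length, 55.6% held the NFAT letters and 14.05% the RUNX letters. Of the 4 genes, 2 were matched in the RefSeq promoter table, Ccl3 and Xcl1; Ccl4 and Ccl5 were not.

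Ccl4 (ENSMUSG00000018930), a CC chemokine that attracts T cells and macrophages, had scaled counts of 524, 566 and 421 in PD1hi. In Tconv it had 102, 225 and 82.1, and in Treg 96.6, 34.8 and 30.8. Every PD1hi value lay above every value of the other 2 populations, while Treg and Tconv overlapped at the Treg value of experiment 3, which is the mean of libraries at 68.3 and 125.

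Between PD1hi and Tconv, 2 of the 4 chemokine genes were called higher and none lower, where 26.1% of all tested genes were called in either direction (14.2% higher in PD1hi and 11.9% lower). Ccl3 was 3.86-fold higher (log2 difference 1.95 ± 0.46 SE, adjusted p = 0.00767) and Ccl4 4.01-fold higher (2.0 ± 0.45 SE, adjusted p = 0.00558), and both differences held in 3 of 3 experiments. Because these are bulk libraries, a change in the share of cells that make a chemokine and a change in its RNA per cell cannot be told apart.

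**Figure D1:**
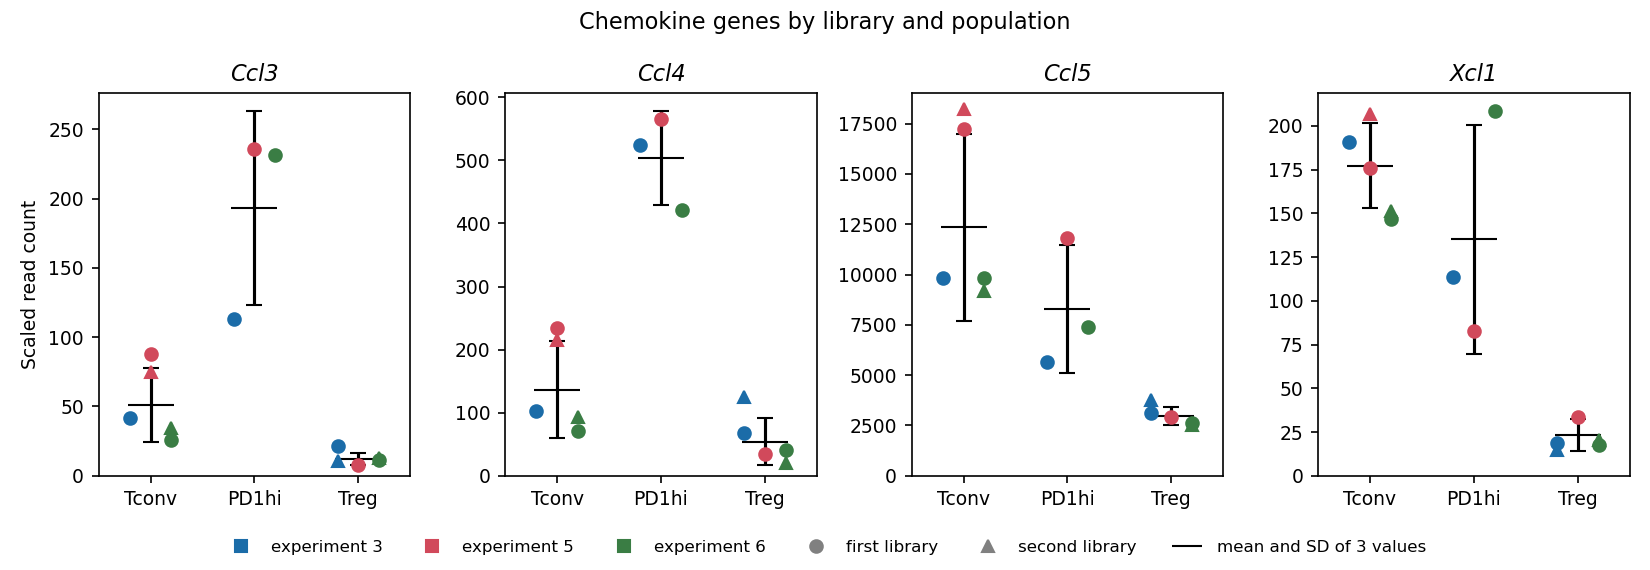
Scaled counts (linear axes from 0, 1 panel per gene) of Ccl3, Ccl4, Ccl5 and Xcl1 in each of the 13 libraries by population; colours mark experiments, circles and triangles the first and second library of a pair, and black lines the mean and SD of 3 values. Ccl3 and Ccl4 are highest in PD1hi, Ccl5 and Xcl1 are highest on average in Tconv (Ccl5 12356, Xcl1 177), and Treg is lowest on average for all 4.

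Ccl5 and Xcl1 were not called between PD1hi and Tconv. Ccl5 (ENSMUSG00000035042), which recruits memory T cells and eosinophils, had scaled counts of 5631, 11823 and 7404 in PD1hi. In Tconv it had 9845, 17719 and 9503, and in Treg 3447, 2909 and 2568. PD1hi and Tconv overlapped, and every Treg value was below every value of the other populations. The difference of PD1hi from Tconv was -0.58 ± 0.28 (SE, log2; 95% interval -1.19 to 0.03; adjusted p = 0.155), lower in 3 of 3 experiments. Without the PD1hi value of experiment 5, the highest of the 3, it was -0.87 and was called (adjusted p = 0.0327).

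Xcl1 (ENSMUSG00000026573), the chemokine that attracts Xcr1+ dendritic cells, had scaled counts of 114, 82.9 and 209 in PD1hi. In Tconv it had 191, 192 and 149, and in Treg 16.6, 33.9 and 19.1. PD1hi and Tconv overlapped because the PD1hi value of experiment 6 was higher than all 3 Tconv values, while Treg lay below both. The difference of PD1hi from Tconv was -0.49 ± 0.38 (SE, log2; 95% interval -1.32 to 0.35; adjusted p = 0.395), lower in 2 of 3 experiments. Its promoter covers chr1:164935523-164935772 on the minus strand of GRCm38.p6, from RefSeq.
Xcl1: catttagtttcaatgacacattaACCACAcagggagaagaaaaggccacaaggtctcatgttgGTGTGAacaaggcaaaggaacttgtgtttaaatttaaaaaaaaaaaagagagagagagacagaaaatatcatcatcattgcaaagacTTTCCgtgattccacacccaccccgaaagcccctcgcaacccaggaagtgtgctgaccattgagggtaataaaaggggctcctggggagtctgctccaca
The Xcl1 window held NFAT (100 to 96 bases before the start), RUNX (227 to 222) and T-box (187 to 182), each once and on the other strand, so that the capitals show their reverse complements. T-box letters were in 12.3% of promoters and, unlike NFAT and RUNX letters, were not in the Ccl3 window. Any part of these motifs in the levels of Ccl3 or Xcl1 was not tested. The other 4 motifs, AP-1, NF-kappaB, TATA box and CRE, were in neither window and were in 6.75%, 1.41%, 12.4% and 17.8% of promoters. Reads of Xcl1 can be shared with 1 antisense gene: 51 of 474 windows of 50 bases (10.8%) in its GENCODE transcript also occur in Gm20743 on the opposite strand, and no strand setting of the counting was found in the labels. No such window of Ccl3, Ccl4 or Ccl5 occurs in another gene.

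PD1hi exceeded Treg in all 4 chemokine genes, where 16.5% of all tested genes were called in either direction (8.16% higher in PD1hi and 8.39% lower). Ccl3 was 14.8-fold higher (log2 difference 3.89 ± 0.46 SE, adjusted p = 9.3e-05; 3.16 with a pseudocount of 10) and Ccl4 10.4-fold higher (3.38 ± 0.45 SE, adjusted p = 0.000218). Xcl1 was 5.46-fold higher (2.45 ± 0.38 SE, adjusted p = 0.000722) and Ccl5 2.67-fold higher (1.42 ± 0.28 SE, adjusted p = 0.00374). PD1hi and Treg did not overlap for any of them, and each was higher in 3 of 3 experiments. The share of all tested genes without such overlap was not determined, for this or the other comparisons. Lack of overlap between 3 and 3 values is therefore a description only. The PD1hi values are the same as those compared with Tconv, and the Treg values are the same as those compared with Tconv.

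Between Treg and Tconv, 3 of the 4 were called lower in Treg and none higher, where 14.4% of all tested genes were called in either direction (8.73% higher in Treg and 5.66% lower). Xcl1 was 7.65-fold lower (log2 difference -2.94 ± 0.38 SE, adjusted p = 0.000265) and Ccl5 4.01-fold lower (-2.0 ± 0.28 SE, adjusted p = 0.000435). Ccl3 was 3.85-fold lower (-1.95 ± 0.46 SE, adjusted p = 0.0131), but leaving out experiment 5 from Treg (adjusted p = 0.0531) or from Tconv (adjusted p = 0.0646), or voom on the recovered reads (adjusted p = 0.0687), ended the call. Ccl4 missed the threshold (-1.37 ± 0.45 SE; 95% interval -2.35 to -0.39; adjusted p = 0.0645). Without the second Treg library of experiment 3 Ccl4 was -1.54 (adjusted p = 0.0191), and without the whole Treg value of that experiment -1.89 (adjusted p = 0.0103), so that both passed. It also passed with every library as its own sample (-1.40, adjusted p = 0.0235), a setting that counts both libraries of a pair as separate samples. With experiment 5 or 6 left out of Treg, or 5 out of Tconv, it did not (adjusted p = 0.212, 0.208 and 0.235). In 17 of 22 alternatives Ccl4 stayed uncalled.

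**Figure D2:**
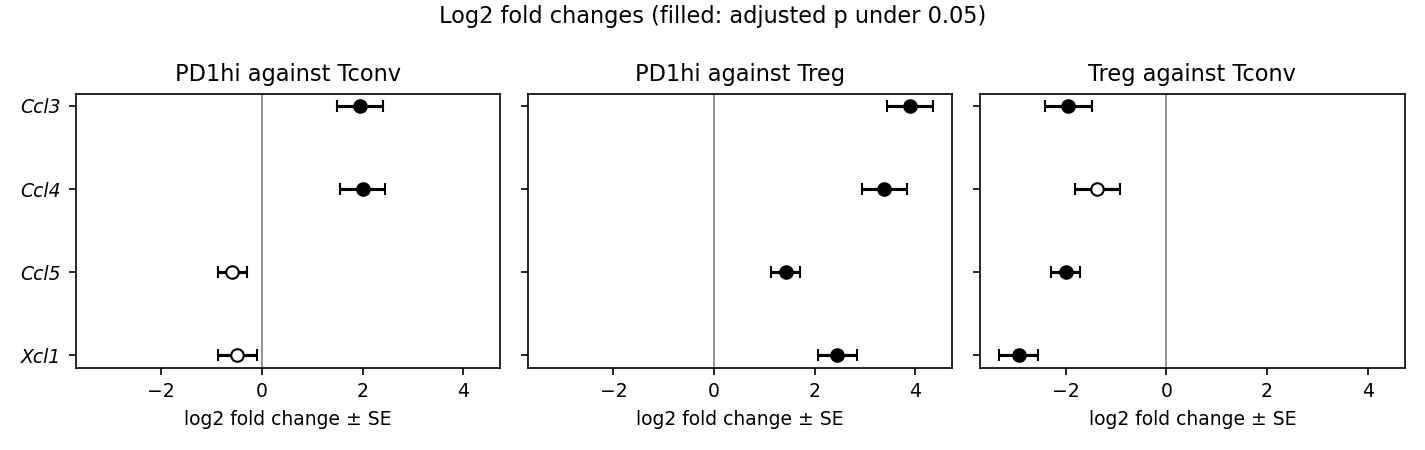
Log2 difference (horizontal axis, on the log2(scaled count + 1) scale) of each chemokine gene in each comparison, with bars of 1 SE; filled points passed the adjusted threshold. Ccl3 and Ccl4 are filled and above 0 for PD1hi against Tconv, all 4 genes are for PD1hi against Treg, and all 4 are below 0 for Treg against Tconv, where Ccl4 (-1.37 ± 0.45 SE) is open.

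The 4 genes differed from each other in how the 3 experiments agreed. Of PD1hi minus Tconv, the log2 differences in experiments 3, 5 and 6 were 1.42, 1.52 and 2.90 for Ccl3 and 2.34, 1.33 and 2.34 for Ccl4. For Ccl5 they were -0.81, -0.58 and -0.36, and for Xcl1 -0.74, -1.20 and 0.48. Ccl3 and Ccl4 were thus higher and Ccl5 lower in every experiment, and Xcl1 turned in experiment 6. Treg minus Tconv was -0.08 for Ccl4 in experiment 3, where the other 2 experiments had -2.66 and -1.38, and for Xcl1 it was -3.44, -2.47 and -2.90.

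**Figure D3:**
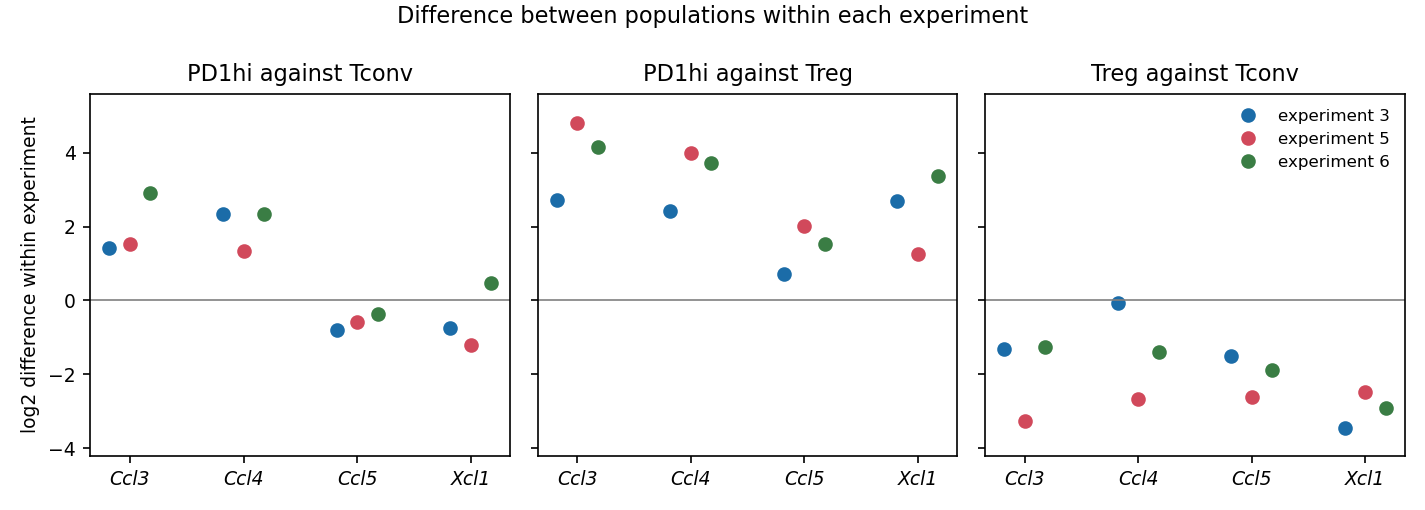
Log2 differences between populations within each of the experiments 3, 5 and 6, by gene. Ccl3 and Ccl4 are above 0 for PD1hi minus Tconv in all 3, Xcl1 is below 0 in 2 of 3, and Ccl4 is near 0 (-0.08) for Treg minus Tconv in experiment 3.

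Per kilobase of transcript, Ccl5 was the highest of the 4 in each population, at 15575 ± 5995 (SD, n = 3) in PD1hi, 5591 ± 834 in Treg and 23225 ± 8736 in Tconv. In PD1hi Ccl4 came next (763 ± 113), above Xcl1 (258 ± 125) and Ccl3 (252 ± 91.0), which overlapped each other. In Tconv Xcl1 (339 ± 46.4) and Ccl4 (207 ± 117) overlapped, and Ccl3 was lowest (66.6 ± 35.1). In Treg Ccl4 (82.0 ± 55.9) and Xcl1 (44.4 ± 17.8) overlapped, with means of 49.7 and 50.7 without experiment 3, and Ccl3 was again lowest (15.6 ± 5.62). The GENCODE M21 transcripts used are 766 (Ccl3), 660 (Ccl4), 532 (Ccl5) and 523 (Xcl1) bases. Across the 9 values, log2 levels had a Pearson r of 0.954 for Ccl3 with Ccl4 and 0.841 for Ccl5 with Xcl1, and 0.590 to 0.699 for the other 4 pairs. This describes 9 values that share experiments and populations. The log2 difference of Ccl4 from Ccl5 was -3.42, -4.38 and -4.13 in PD1hi, -5.14, -6.34 and -6.33 in Treg and -6.57, -6.29 and -6.84 in Tconv, so PD1hi stood above both without overlap.

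The listed genes of receptors, some of them atypical, differed in their order across the populations. Ccr1, Ccr3 and Ccrl2 were highest on average in Treg, while Xcr1 had the same order of means as its ligand gene Xcl1 (Tconv, PD1hi, Treg). Of 7 listed receptor genes, 6 were in the table and 5 were tested. Between PD1hi and Tconv 1 (Ccrl2) was higher and none lower, with a median log2 difference of -0.66 against a median of 0.00 over all genes. Against Treg, PD1hi had none higher and 2 lower (median -1.24, all genes -0.01), and Treg against Tconv had 2 higher and 1 lower (median 1.17, all genes 0.01). Of all tested genes, 26.1%, 16.5% and 14.4% were called in either direction in these comparisons, in that order. Ccr1, a receptor of Ccl3 and Ccl5, averaged 6.69 ± 4.98 (SD, n = 3) in PD1hi, 22.9 ± 6.76 in Treg and 12.3 ± 8.67 in Tconv and was not called in any comparison. Ccr3, which Ccl5 can bind, averaged 12.2 in PD1hi, 291 in Treg and 23.9 in Tconv. It was higher in Treg than in PD1hi (PD1hi minus Treg -5.39 ± 0.96 SE, adjusted p = 0.00194; -3.93 with a pseudocount of 10, -6.33 and -3.99 with experiment 3 or 6 left out of PD1hi) and than in Tconv (3.78 ± 0.96 SE, adjusted p = 0.0197), the second of which did not pass without any 1 of the Treg values or with experiment 3 or 6 left out of Tconv (adjusted p up to 0.0854).

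Ccrl2, an atypical receptor, averaged 229 ± 98.7 in PD1hi, 503 ± 67.3 in Treg and 104 ± 30.4 in Tconv. These data do not show whether Ccrl2 binds any of the members. Its gene was counted among the receptors only because it was listed. Ccrl2 was higher in Treg than in Tconv (2.29 ± 0.34 SE, adjusted p = 0.000725) and lower in PD1hi than in Treg (-1.24 ± 0.34 SE, adjusted p = 0.0278), a call lost without any 1 of the Treg values (adjusted p up to 0.100). Its difference of PD1hi from Tconv (1.05 ± 0.34 SE, adjusted p = 0.0421) remained called, of the 9 values left out in turn, only when experiment 6 was left out of PD1hi or experiment 5 out of Tconv (adjusted p up to 0.157), and was lost with only the first library of each pair or only these 2 populations in the fit. Xcr1, the receptor of Xcl1, averaged 22.5 ± 15 in PD1hi, 8.71 ± 7.62 in Treg and 61.9 ± 3.30 in Tconv and was lower in Treg than in Tconv (-3.43 ± 0.93 SE, adjusted p = 0.0274; -2.04 with a pseudocount of 10 and -4.13 with experiment 6 left out of Treg). That call was lost without the Treg value of experiment 5 or any 1 of the Tconv values (adjusted p up to 0.0851).

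Of 33 other chemokine ligand genes, 15 were in the table and 7 were tested. PD1hi against Tconv had 2 higher and none lower (median log2 difference -0.31), PD1hi against Treg 2 higher and 1 lower (median -0.10) and Treg against Tconv 2 higher and none lower (median 0.63). The shares called among all tested genes, in either direction, were 26.1%, 16.5% and 14.4% in that order. Cxcl10, the interferon-induced ligand of Cxcr3, averaged 727 ± 179 in PD1hi, 150 ± 22.1 in Treg and 41.8 ± 12.7 in Tconv, so that PD1hi was 17.2-fold above Tconv (4.10 ± 0.29 SE, adjusted p = 1.5e-06). Ccl1, a ligand of Ccr8, averaged 68.1 ± 9.5 in PD1hi against 7.22 ± 4.12 in Treg and 3.15 ± 2.96 in Tconv. Its difference from Tconv was 4.32 ± 0.67 (SE, log2; adjusted p = 0.000494), against 2.59 with a pseudocount of 10 and 5.13 with voom. Cxcl2, which attracts neutrophils, averaged 57.6 ± 20.48 in Treg, 1.36 ± 1.57 in PD1hi and 0.165 ± 0.286 in Tconv, and was lower in PD1hi than in Treg and higher in Treg than in Tconv. Ccl6 and Ccl9, which lie in the same mouse cluster of CC chemokine genes as Ccl3, Ccl4 and Ccl5, were low: Ccl6 averaged 5.86 ± 4.69 in PD1hi, 17.3 ± 10.7 in Treg and 22.1 ± 23.3 in Tconv and was not called in any comparison, and Ccl9 was under the filter.

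The granule and effector genes, which serve cell killing and cytokine secretion, did not move as 1 group. Of 10 tested genes, PD1hi had 2 higher and 3 lower than Tconv (median log2 difference -0.53), 4 higher and 2 lower than Treg (median 0.32), and Treg had 2 higher and 6 lower than Tconv (median -1.12). Among all tested genes, 26.1%, 16.5% and 14.4% were called in either direction, in that order. Ifng, encoding interferon gamma, averaged 1757 ± 320 in PD1hi, 116 ± 61.4 in Treg and 612 ± 225 in Tconv. PD1hi was above Tconv (1.57 ± 0.36 SE, adjusted p = 0.00675) and Treg was below it (-2.47 ± 0.36 SE, adjusted p = 0.00062), in the same order as Ccl3 and Ccl4. Prf1, encoding perforin, averaged 253 ± 82.1 in PD1hi, 667 ± 101 in Treg and 1578 ± 185 in Tconv, and PD1hi was lowest (-2.68 ± 0.22 SE from Tconv, adjusted p = 4.5e-06). Fasl, a death ligand, was lower in PD1hi than in Tconv (-1.22 ± 0.24 SE, adjusted p = 0.00279) and higher than in Treg (0.94 ± 0.24 SE, adjusted p = 0.0190), the latter lost without the PD1hi or Treg values of experiments 3 or 5 and with only these 2 populations in the fit (adjusted p up to 0.0790).

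Gzmk and Nkg7, a granzyme and a granule protein of cytotoxic cells, were high in PD1hi and Tconv and low in Treg. Gzmk averaged 1548 ± 498, 909 ± 381 and 26.4 ± 7.61 in PD1hi, Tconv and Treg, and PD1hi was 55.9-fold above Treg (5.80 ± 0.33 SE, adjusted p = 3e-07). Nkg7 averaged 2567 ± 677 in PD1hi, 4111 ± 1264 in Tconv and 662 ± 114 in Treg. It was below Tconv in Treg (-2.60 ± 0.24 SE, adjusted p = 1.8e-05) and was not called between PD1hi and Tconv (-0.67 ± 0.24 SE, adjusted p = 0.0587). Gzmb was the opposite of these, higher in Treg (505 ± 111) than in PD1hi (109 ± 65.7) or Tconv (133 ± 45). Srgn, encoding the granule proteoglycan serglycin, was higher in PD1hi (21218 ± 2456) and Treg (16539 ± 2135) than in Tconv (7258 ± 671), and Ctsw, encoding cathepsin W, was lower in PD1hi (1050 ± 106) and Treg (1294 ± 114) than in Tconv (2244 ± 270).

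**Figure D4:**
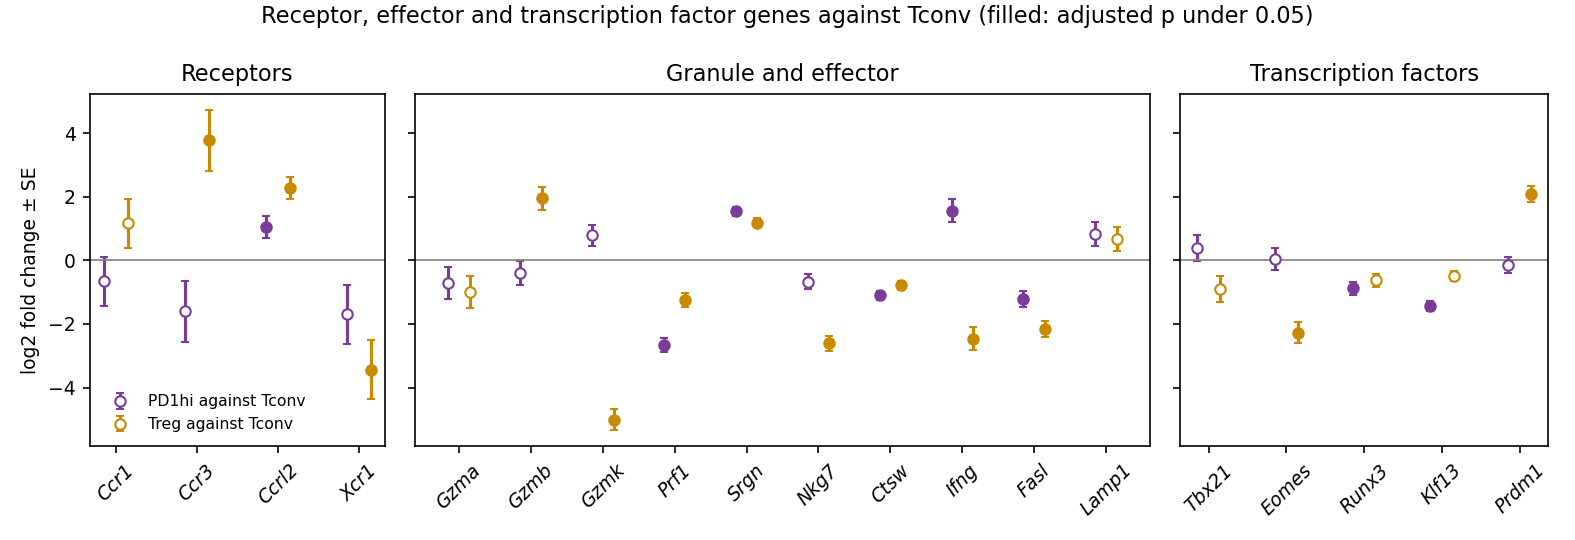
Log2 differences (± SE) of PD1hi and of Treg from Tconv for receptor genes, granule and effector genes and transcription factor genes; filled points passed the adjusted threshold. Ifng is higher and Prf1 lower in PD1hi than in Tconv, and Gzmk and Nkg7 are lower in Treg than in Tconv.

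Of 17 tested transcription factor genes tied to effector and chemokine genes, PD1hi had 9 higher and 2 lower than Tconv (median log2 difference 0.89) and 9 higher and 3 lower than Treg (median 0.70), and Treg had 5 higher and 2 lower than Tconv (median 0.19). Calls in either direction covered 26.1%, 16.5% and 14.4% of all tested genes, in that order. Eomes, a T-box factor, averaged 190 ± 74.6 in PD1hi, 34.9 ± 1.45 in Treg and 176 ± 38.7 in Tconv and was higher in PD1hi than in Treg (2.32 ± 0.33 SE, adjusted p = 0.00039) and lower in Treg than in Tconv (-2.28 ± 0.33 SE, adjusted p = 0.000613). Tbx21, encoding the T-box factor T-bet, averaged 270 ± 97.8 in PD1hi, 112 ± 53.1 in Treg and 214 ± 110 in Tconv. Its difference of PD1hi from Treg was 1.30 ± 0.41 (SE, log2; adjusted p = 0.0479). It did not pass with experiment 3 or 5 left out of PD1hi, 3 or 6 out of Treg or 3 out of Tconv, or with no filter on low values (adjusted p up to 0.171).

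Klf13, a factor known to bind the Ccl5 promoter in late-activated T cells, averaged 9814 ± 1923 in PD1hi, 18544 ± 1643 in Treg and 26297 ± 2113 in Tconv, so that it was lower in PD1hi than in Tconv (-1.44 ± 0.16 SE, adjusted p = 3.5e-05). Runx3 was lower in PD1hi (445 ± 79.6) than in Tconv (823 ± 166; -0.88 ± 0.21 SE, adjusted p = 0.00739), and Prdm1, encoding Blimp-1, was higher in Treg (2494 ± 363) than in PD1hi (557 ± 261) and Tconv (582 ± 23.2).

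Of 11 genes of the T cell receptor activation list, PD1hi had 4 higher and 1 lower than Tconv (median 0.35), where 26.1% of all tested genes were called. It had 2 higher and 2 lower than Treg (median 0.80), where 16.5% of all were called, and Treg had 1 higher and 2 lower than Tconv (median 0.09), where 14.4% were. Nr4a2, an early-response nuclear receptor, was higher in PD1hi (263 ± 36.9) than in Tconv (63.4 ± 43.2; 2.32 ± 0.49 SE, adjusted p = 0.00401; 1.65 with experiment 6 left out of Tconv), while Nr4a1 was not called in any comparison. Nr4a3 was also called higher than in Tconv (1.85 ± 0.56 SE, adjusted p = 0.0279), a call lost with experiment 6 left out of PD1hi or experiment 5 or 6 left out of Tconv (adjusted p up to 0.116). Tnf averaged 525 ± 43.5 in PD1hi, 332.5 ± 15.3 in Treg and 312.5 ± 10.1 in Tconv and was higher in PD1hi than in either, the call against Treg being lost with every library as its own sample and duplicateCorrelation (adjusted p = 0.0505). Myc was lower in PD1hi (812 ± 151) than in Treg (2924 ± 449) and Tconv (3171 ± 277). Tnfrsf9, encoding the costimulatory receptor CD137, averaged 1566 ± 106 in PD1hi, 5555 ± 812 in Treg and 493 ± 67.7 in Tconv, and each population differed from the others. Cd40lg, encoding CD40 ligand, was lower in Treg (623 ± 92.3) than in PD1hi (5095 ± 484) and Tconv (4126 ± 513). Csf2, encoding the cytokine GM-CSF, was lower in Treg (2.83 ± 2.55) than in Tconv (18.8 ± 4.79; adjusted p = 0.0254), a call lost with experiment 5 left out of Treg or experiment 6 out of Tconv (adjusted p up to 0.0671).

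Markers of other cell types moved with some of these results. The summed scaled count of the 10 detected CD8, NK and innate-like T cell markers (of 13 listed) was 702 to 881 in PD1hi, 489 to 714 in Treg and 2705 to 2812 in Tconv. Of 8 tested, PD1hi had none higher and 3 lower than Tconv, and Treg had none higher and 5 lower. Against Treg, PD1hi had 1 higher (Eomes) and 1 lower (Cd8b1), with 6 not called and a median log2 difference of 0.61. Among all tested genes, 26.1% were called between PD1hi and Tconv (11.9% lower in PD1hi). Between Treg and Tconv it was 14.4% (5.66% lower in Treg), and between PD1hi and Treg 16.5% (8.16% higher in PD1hi and 8.39% lower). Klrk1, an NK receptor gene, averaged 74.4 ± 16.8 in PD1hi, 81.7 ± 22.3 in Treg and 595 ± 81.0 in Tconv. Of the CD8 genes, Cd8b1 averaged 98.1 ± 40.2 in PD1hi, 260 ± 55.1 in Treg and 424 ± 37.7 in Tconv and was lower in PD1hi than in Tconv (-2.19 ± 0.31 SE, adjusted p = 0.000243) and than in Treg (-1.47 ± 0.31 SE, adjusted p = 0.00579), and Cd8a, under the filter, averaged 6.78, 5.55 and 8.43. The part of these cells in the Ccl5, Xcl1, Nkg7 and Prf1 differences from Tconv was not tested.

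The summed count of 12 myeloid and dendritic markers (of 15 listed) was 313 to 536 in PD1hi, 290 to 948 in Treg and 392 to 867 in Tconv. The highest values of both Treg and Tconv were those of experiment 3, and the Treg value of that experiment was also the highest of the Treg values for Ccl3, Ccl4 and Ccl5 but the lowest for Xcl1. The Tconv value of experiment 3 was the highest of the Tconv values for none of the 4, with Ccl4 at 102 against 225 in experiment 5. Of 10 tested, only Itgam was called between PD1hi and Tconv and only Itgam between PD1hi and Treg, with 9 not called in each. Among all tested genes, 26.1% and 16.5% were called in these comparisons. Itgam, a myeloid integrin gene, averaged 13.7 ± 8.26 in PD1hi, 109 ± 36.6 in Treg and 124 ± 46.1 in Tconv and was lower in PD1hi than in Tconv (-3.15 ± 0.44 SE, adjusted p = 0.000213) and than in Treg (-2.99 ± 0.44 SE, adjusted p = 0.000454). Csf1r, a macrophage receptor gene, averaged 281 ± 120 in PD1hi, 207 ± 32.4 in Treg and 191 ± 12.5 in Tconv, and Cd14, a monocyte marker under the filter, averaged 2.39, 0.468 and 2.37. All 8 B cell markers were in the table, with a summed count of 1685 to 2289 in PD1hi, 887 to 1139 in Treg and 220 to 401 in Tconv. Cd22 alone averaged 1675 ± 243 in PD1hi, 241 ± 30.7 in Treg and 178 ± 51.8 in Tconv, while Pax5 averaged 6.48 in PD1hi. Cd79b averaged 130 ± 39.4 in PD1hi, 629 ± 83.8 in Treg and 57.8 ± 3.12 in Tconv. Of 4 tested, PD1hi had 2 higher and none lower than Tconv. It had 1 higher (Cd22) and 1 lower (Cd79b) than Treg, and Treg had 1 higher (Cd79b) and none lower than Tconv. All tested genes had 26.1%, 16.5% and 14.4% called, in that order. Plasma cell markers summed to 3495 to 6475 in PD1hi, 3773 to 7160 in Treg and 2026 to 2666 in Tconv, and erythroid and platelet markers to 54.3 to 87.0, 58.3 to 71.8 and 26.5 to 76.7. Most of the plasma cell sum was Igj, which averaged 3866 in PD1hi, 4316 in Treg and 1586 in Tconv, and Xbp1 (1351, 1178 and 645). Sdc1 averaged 49.1, 32.4 and 17.8, and Tnfrsf17, under the filter, 5.13, 12.6 and 2.79. The part of these cells in the chemokine differences was not tested.

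The genes most like each member were ranked by Pearson r of log2 levels across the 9 values, over 11288 genes with a mean of at least 50. For Ccl5 the closest were Nkg7 (r = 0.984), Ier3 (0.981) and Arpc1b (0.969). For Ccl3 they were Slc37a4 (0.980), Gm12534 (0.975) and Cd5 (0.969), for Ccl4 Zfp324 (0.970), Traj27 (0.969) and Gm12534 (0.968), and for Xcl1 Appl2 (0.970), Fam101b (0.969) and Tmie (0.963). Gm12534 averaged 216 ± 48.5 in PD1hi, 0.312 ± 0.541 in Treg and 9.23 ± 7.48 in Tconv. Only Ccl3 and Ccl4 shared a gene among these. The 9 values share populations, so any gene with the same order of populations ranks high.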

How the data were processed

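RNA-seq of 13 libraries was analysed. Per the labels' protocols, Trizol RNA was depleted of ribosomal RNA (RiboMinus kit) and sequenced on Ion Torrent. The submitters' processing notes name HTSeq 0.5.4, Picard and limma, and mm9, hg19 and GRCh37, with no roles; an aligner was not given in the sources used here. Deposited by the authors was 1 table of signal values, 18649 genes by 13 libraries, named as counts scaled by size factors. Each deposited signal value equalled 1 plus whole reads times a library constant (within 0.001 reads), so 1 was subtracted.

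Libraries that share experiment and population were averaged. The 14177 genes with a mean of 10 or more were tested with limma 3.58.1 (R 4.3.3; variance trend) on log2(scaled count + 1), 2-sided, with 1 variance for all populations. This scale understates the change of low genes. On simulated data for PD1hi against Tconv over 14177 genes, 89% of 100 genes changed 2-fold and 99% of 100 changed 4-fold were recovered, and 10 unchanged genes were called. The simulated samples were independent, and all genes had the same spread beyond counting error. These shares do not carry over to more variable genes. Within a population, the SD of the members was 13.7% (Xcl1 in Tconv) to 68.2% (Ccl4 in Treg) of the mean. The members and lists were chosen with earlier results of these data known. The genes named were the 4 members, receptors of them, the called genes of the ligand, effector and activation lists, Ccl6, Ccl9, 5 transcription factors (Tbx21, Eomes, Runx3, Klf13, Prdm1) and, for each member, the 3 genes of most like pattern. Nr4a1 and markers of other cells were picked after their values were seen. Values of some listed genes are not reported here. Motifs, transcript lengths (GENCODE M21) and promoters (RefSeq) were read from reference tables, not from the authors' build. Alternatives covered pseudocount, filter, scaling, averaging, blocking, samples and test.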

Additional observations from a re-analysis of the deposited data

How the results depend on the processing

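Over 22 alternatives, 9 of the 12 log2 differences (4 genes, 3 comparisons) kept their side of the threshold and no difference changed sign. Of 264 values, 255 stayed on their side, 3 lost the call and 6 gained it. Ccl5 between PD1hi and Tconv ranged from -0.87 to -0.29 with 1 value left out. Ccl3 between Treg and Tconv ranged from -2.25 to -1.55 with 1 value left out and was -1.90 with voom on recovered reads (adjusted p = 0.0687, chosen after seeing the data). Ccl4 between Treg and Tconv ranged from -1.89 to -0.95 with 1 value left out, and was -1.40 with every library as its own sample (adjusted p = 0.0235), -1.40 with duplicateCorrelation (adjusted p = 0.0409), -1.35 with only the first library of each pair (adjusted p = 0.0418) and -1.54 without the second Treg library of experiment 3 (adjusted p = 0.0191). In 17 of the 22 alternatives this Ccl4 difference stayed uncalled. The cause of these changes in the calls was not tested. Genes called between Treg and Tconv numbered 2039, and 3151 with every library as its own sample. Of 59 calls on a selection of the genes listed beside the chemokines, 50 held in every alternative that tested them, 9 were lost in some, and none turned.

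The experiment number as replicate block changed none of the 12 calls. With the block, Ccl3 between PD1hi and Tconv stayed at 1.95 (adjusted p = 0.0161), Ccl5 at -0.58 (adjusted p = 0.0844), and Ccl4 between Treg and Tconv at -1.37 (adjusted p = 0.0576), and the genes called were 3974, 2579 and 2204 against 3700, 2346 and 2039. Deviations from the population mean correlated at -0.07 to 0.298 in the 9 same-experiment pairs (median 0.169) and at -0.274 to 0.125 in the 18 others. Not every value correlated best with its own experiment: PD1hi of experiment 6 had -0.07 with Treg of 6 and 0.0846 with Treg of 3. The planned edgeR and DESeq2 tests were not run; voom was the test made on the recovered reads. Depth limits Ccl3 in Treg, with 8 to 23 reads a library.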
